A study of Mus musculus with 12 samples.

Results

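The genes described here move, store and sense iron in the liver. The set holds 9 genes: Hamp (hepcidin), Hfe and Tfr2 (iron sensors), Trf (transferrin), Tfrc (transferrin receptor 1), Slc11a2 (the iron importer DMT1), Fth1 and Ftl1 (the ferritin heavy and light chains) and Slc40a1 (the iron exporter ferroportin). They were chosen by gene symbol, and all 9 were found among the 53599 genes of the count table. All 9 also passed the filter on low counts, which kept 16210 genes.

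The 12 bulk RNA-seq libraries were made from sorted cells of mouse liver, with 3 replicates for each of 4 groups, and the study follows hepatocytes that take on biliary features. The early group was EGFP+ Cd24- Epcam-, the intermediate group EGFP+ Cd24+ Epcam-, the full group EGFP+ Cd24+ Epcam+ and the BEC group (biliary epithelial cells) EGFP- Epcam+. Steps are comparisons of neighbours in the order early, intermediate, full and BEC. BEC lacks the EGFP of the other groups, so the third step, BEC against full, does not follow the same labelled cells. A gene said to rise or fall there differs between the groups, and BEC is not a stage after full. Every group came from mice labelled WT that had received AAV8-TBG-Cre, in which the hepatocyte promoter TBG drives Cre, and had then been fed 0.1% DDC, begun 1 week after the virus and given for 8 weeks. DDC is a bile duct toxin that also blocks the last step of heme synthesis, where iron enters the porphyrin ring, so all 4 groups, BEC included, carry that exposure. The labels name neither the reporter allele nor the age of the mice, and do not say whether replicates are separate mice. The p-values therefore measure the spread between these samples, which may be technical.

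Hepcidin is a small hormone made by hepatocytes that binds ferroportin and removes it from the cell surface, which keeps iron inside cells. Hepatocytes adjust hepcidin to body iron through BMP and SMAD signalling, helped by the receptors HFE and TFR2 and the co-receptor hemojuvelin. They also secrete transferrin, which carries iron in blood, and keep iron in ferritin shells built of heavy and light chains. Inside cells, the iron regulatory proteins IRP1 and IRP2 bind a short RNA hairpin, the iron-responsive element. They block translation when the hairpin lies before the coding sequence, as in ferritin, and protect the messenger RNA when it lies after it, as in Tfrc. Part of this control acts on translation, which read counts do not show.

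The hairpins were located in the transcripts because they divide the set by mode of control. Sites were searched as a C, 5 bases and the loop CAGTGN, with at least 4 of the 5 bases on either side of the loop able to pair (G with U, written T, included). A site turned up in 5 of the 9 genes, against 10.1% of 21877 protein-coding genes, so the pattern is loose and a match is a description, not a proven element. Each site is printed 5′ to 3′ as 29 bases with the loop in capitals, from the GENCODE M21 transcripts (GRCm38). Fth1, Ftl1 and Slc40a1 had it in the 5′ UTR, Slc11a2 in the 3′ UTR, and Tfrc had 4 copies in its 3′ UTR.
Fth1 5′ UTR: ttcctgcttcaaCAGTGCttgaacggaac
Ftl1 5′ UTR: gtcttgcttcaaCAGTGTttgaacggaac
Slc40a1 5′ UTR: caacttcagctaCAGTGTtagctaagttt
Slc11a2 3′ UTR: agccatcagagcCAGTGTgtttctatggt
Tfrc 3′ UTR, site 1: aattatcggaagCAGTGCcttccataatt
Tfrc 3′ UTR, site 2: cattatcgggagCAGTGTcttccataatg
Tfrc 3′ UTR, site 3: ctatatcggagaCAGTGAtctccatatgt
Tfrc 3′ UTR, site 4: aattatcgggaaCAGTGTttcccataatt
Slc11a2 is transcribed in forms with and without the hairpin, and counts per gene do not separate them.

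Total counts ran from 15112893 to 19731887 per library. Values are CPM, the counts divided by the TMM-scaled library size in units of 1e6 reads. A floor of 3 counts is worth 0.128 to 0.273 CPM, depending on the library. It allows for counting error alone, because PCR copies of a molecule are not independent of each other. Mitochondrial genes took 11.4% of the counts in early replicate 2 and between 2.2% and 6% in the other libraries. A sum of 10 hepatocyte genes lay between 115239 and 117419 CPM in early, 20471 and 25641 in intermediate, 4591 and 6049 in full, and 2617 and 3262 in BEC. The sum of 9 biliary genes went from 954 to 1913 CPM in early to 9645 to 12617, 12612 to 15956 and 14744 to 18519. In bulk samples, fewer cells of a type and less RNA per cell cannot be told apart, so a lower level of a hepatocyte gene can be either.

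Nearly every iron gene was lower in the other sorted groups than in early. Between intermediate and early, 9 of the 9 genes fell, where 25.7% of all genes tested were called lower and 28.7% higher, and the median log2 fold change of the 9 was -1.41 against 0.06 over all genes. Between full and intermediate, 6 fell and the other 3 (Tfrc, Slc11a2 and Slc40a1) were not called, where 19.8% of all genes were called lower and 20.8% higher (median -0.68 against 0.01). Between BEC and full, 4 fell and 1 rose, where 10.6% were called lower and 10.7% higher (median -0.22 against 0.0046). In a fit with the replicate number as a block, Fth1 was also called higher there. Calls are edgeR quasi-likelihood tests with a Benjamini-Hochberg adjusted p under 0.05 over all 16210 genes. These directions are relative to the TMM scale. With total counts only, the median of all genes moved to 0.72 at the first step and 0.21 at the second, and 6, 6 and 6 of the 9 genes were called at the 3 steps, with Hfe (-0.09), Slc11a2 (-0.18) and Slc40a1 (-0.08) no longer called between intermediate and early.

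**Figure D1:**
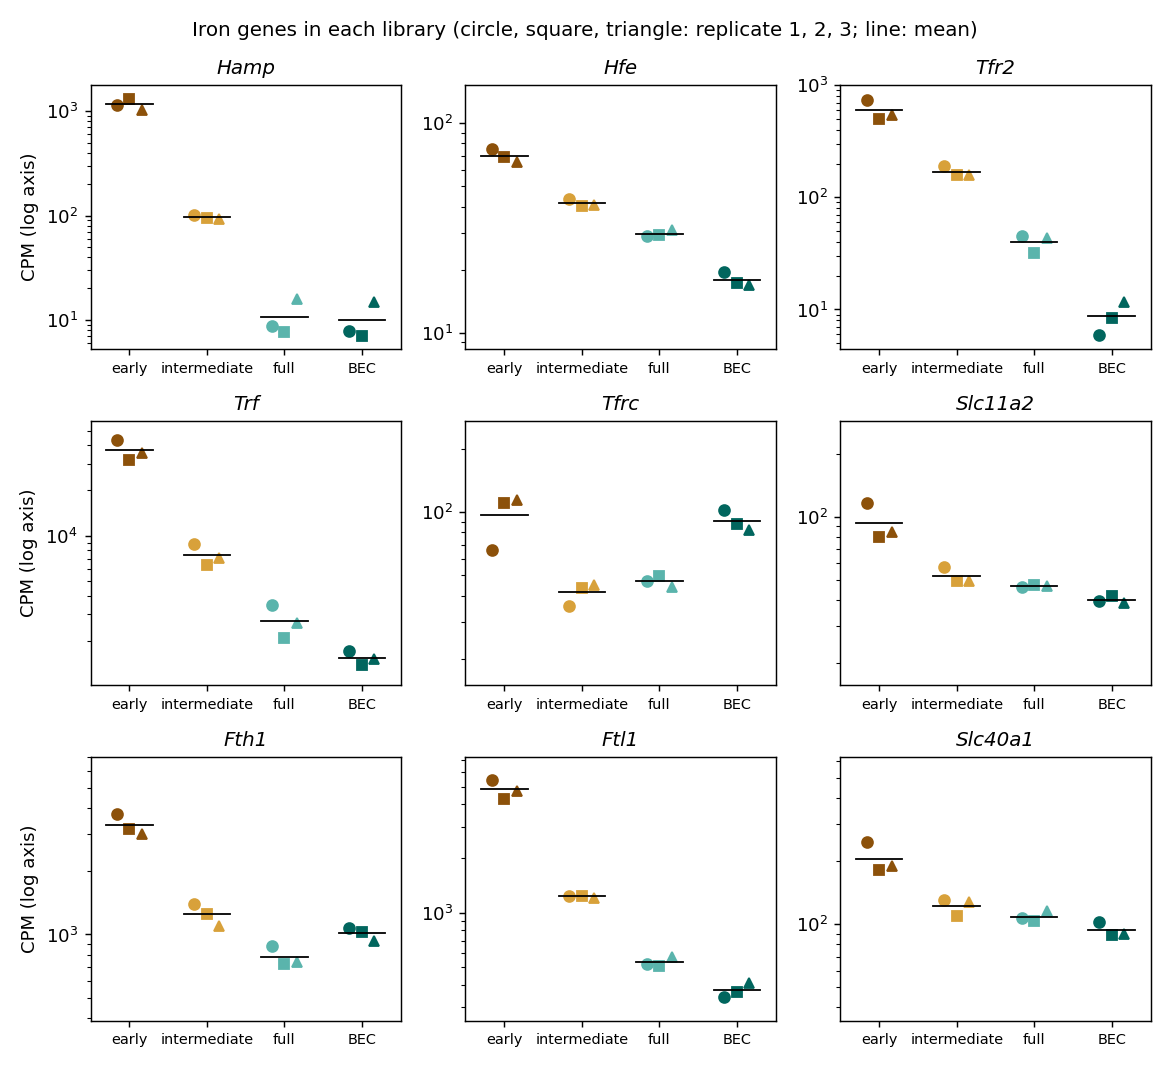
CPM of each of the 9 iron genes (log axis) in the 12 libraries, by group; the circle, square and triangle are replicates 1, 2 and 3 and the line is the mean of 3. Hamp drops from at least 1025 CPM in early to between 7.08 and 15.8 in full and BEC, while Tfrc is lowest in intermediate and full and Fth1 is lowest in full.

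Hamp, the gene of hepcidin, fell further than any other gene of the set. Its level was 1139, 1319 and 1025 CPM in the 3 early libraries, 100.3, 94.4 and 93.5 in intermediate, 8.72, 7.71 and 15.8 in full and 7.9, 7.08 and 14.7 in BEC. Early, intermediate and full did not overlap, and the full and BEC libraries did. Hamp fell by 3.60 on the log2 scale from early to intermediate (12.1-fold, SE 0.252, edgeR adjusted p 1.61e-07). It fell by 3.16 from intermediate to full (8.94-fold, SE 0.266, edgeR adjusted p 1.41e-06). BEC against full gave -0.12 (SE 0.279, edgeR adjusted p 0.839), and the sign turned to 0.27 without full replicate 3, 0.02 without BEC replicate 1 and 0.07 without BEC replicate 2, none called. Leaving out 1 library breaks a pair of replicate numbers, and replicate 3 was the highest in both groups. Within the 3 same-numbered pairs Hamp was lower in BEC than in full each time, and the fit with the replicate block gave -0.12 (edgeR adjusted p 0.798). From early to BEC the change was 117-fold. At 152 to 361 counts per library, Hamp in full and BEC lay well above the floor of 3.

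The 250 bases upstream of the Hamp start are shown because hepcidin answers to BMP signals and to the cytokine IL-6 through this stretch. The window is chr7:30944030-30944279 on the minus strand (RefSeq, GRCm38.p6), with its neighbouring copy Hamp2 at chr7:30924182-30924431 on the same strand. Capitals mark matches to GGCGCC, the core of the BMP-response element, and to TTCNNNGAA, the STAT type of site, both searched on either strand.
Hamp promoter: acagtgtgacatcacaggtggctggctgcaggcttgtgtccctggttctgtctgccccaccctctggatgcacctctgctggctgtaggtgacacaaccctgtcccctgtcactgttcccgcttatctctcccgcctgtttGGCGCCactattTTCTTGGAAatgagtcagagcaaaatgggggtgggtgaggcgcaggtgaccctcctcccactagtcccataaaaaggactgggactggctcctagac
Hamp2 promoter: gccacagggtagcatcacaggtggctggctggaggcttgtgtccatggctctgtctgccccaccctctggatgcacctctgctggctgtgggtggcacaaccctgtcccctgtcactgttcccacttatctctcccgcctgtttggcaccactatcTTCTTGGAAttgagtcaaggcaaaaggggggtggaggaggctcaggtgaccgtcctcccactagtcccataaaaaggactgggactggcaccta
The windows were identical at 91.9% of aligned bases. Hamp held GGCGCC at 109 to 104 bases before the start and TTCNNNGAA at 97 to 89 bases. In Hamp2 only TTCNNNGAA was found, at 94 to 86 bases before the start. Of 32851 promoter windows of this length, 9.59% hold GGCGCC and 7.02% hold TTCNNNGAA, so neither match singles out a gene. A window was found for 6 of the 9 genes (Fth1, Ftl1, Hamp, Hfe, Tfr2 and Tfrc).

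Hamp2, whose product does not act like hepcidin on iron, was rare, at 36, 58 and 107 counts in early, 3, 19 and 11 in intermediate, 5, 0 and 1 in full and 0, 1 and 1 in BEC. All but 1 of the full and BEC libraries were at or under the floor. It fell from early to intermediate by 3.14 on the log2 scale (SE 0.616, edgeR adjusted p 0.000667). How reads that match both genes were counted is not given in the sources used here, so a part of either count may belong to the other gene.

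Hfe, an MHC class I-like protein that senses transferrin-bound iron, had 75.1, 69 and 65.2 CPM in early, 43.6, 40.2 and 40.5 in intermediate, 28.8, 29.3 and 30.8 in full and 19.5, 17.2 and 16.9 in BEC. No 2 groups overlapped. Hfe fell at each step, by 0.75 (SE 0.0907, edgeR adjusted p 1.04e-05), 0.48 (SE 0.0911, edgeR adjusted p 0.000827) and 0.73 (SE 0.0928, edgeR adjusted p 6.69e-05) on the log2 scale. On total counts alone the value between intermediate and early was -0.09 and no longer called (edgeR adjusted p 0.405).

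Tfr2, the second transferrin receptor and partner of HFE in iron sensing, fell more steeply and did not level off. It had 745, 495 and 546 CPM in early, 190.4, 159.6 and 158 in intermediate, 44.8, 31.7 and 43.6 in full and 5.97, 8.43 and 11.6 in BEC. All 4 groups were separate. Tfr2 fell by 1.81 (SE 0.203, edgeR adjusted p 6.52e-06), 2.08 (SE 0.206, edgeR adjusted p 4.50e-06) and 2.21 (SE 0.22, edgeR adjusted p 1.03e-05) on the log2 scale at the 3 steps. From early to BEC it was 68.6-fold lower. Full had covered 63.5% of the log2 distance of Tfr2 from early to BEC and 62.7% of that of Hfe, against 98.3% for Hamp.

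The wider hepcidin pathway was followed through 18 further genes. At the first step 6 rose, 6 fell and 6 were not called, at the second 5 rose and 4 fell, and between BEC and full 1 rose and 1 fell. These counts read against 28.7% of all genes called higher and 25.7% lower at the first step, 20.8% and 19.8% at the second, and 10.7% and 10.6% between BEC and full. Those that fell at the first step included Hjv (hemojuvelin, the BMP co-receptor), at 150 ± 34.4, 15.4 ± 2.13, 1.96 ± 0.84 and 1.5 ± 0.492 CPM in the 4 groups from early to BEC (SD, n = 3 per group). Hjv fell by 3.28 (edgeR adjusted p 7.31e-08) and then by 2.97 (edgeR adjusted p 1.73e-06) on the log2 scale, and was not called between BEC and full (-0.39, edgeR adjusted p 0.51). Tmprss6, the protease matriptase-2 that cleaves hemojuvelin and so restrains hepcidin, went from 749.7 to 341, 178 and 88.2 CPM and fell at all 3 steps (1.14, 0.94 and 1.01 on the log2 scale). Fgl1, a secreted factor that can bind BMP6, went from 385 to 33.8, 4.8 and 3.72 CPM. The genes called higher at the first step were Neo1, Bmp6, Bmpr1a, Bmpr2, Smad5 and Smad4, most of them receptors and SMADs of the BMP pathway. On total counts alone the 18 genes gave 11 higher and 5 lower calls at the first step and 9 higher and 4 lower at the second.

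Several genes of this list are known to be induced by BMP signals. Id1 had 68.9 ± 20.1 CPM in early, 35.6 ± 7.94 in intermediate, 40.5 ± 10.7 in full and 100.2 ± 6.79 in BEC, falling at the first step (-0.95, edgeR adjusted p 0.0029) and rising between full and BEC (1.31, edgeR adjusted p 0.000768). On total counts alone the first of these values was -0.29 and not called (edgeR adjusted p 0.278). Smad6, an inhibitory SMAD, was at 10.8, 11.3, 23.3 and 27.2 CPM and rose between intermediate and full (1.05, edgeR adjusted p 4.11e-05). Smad7, the other inhibitory SMAD of the list (named after its values were seen), was at 43, 46, 69 and 90.4 CPM and rose at the same step (0.58, edgeR adjusted p 0.00759). Atoh8, a transcription factor tied to hepcidin, fell from 38.4 to 15.6 CPM at the first step (-1.29, edgeR adjusted p 9.20e-05) and then stayed at 15.1 and 15.2 without a call. Stat3 and Smad1 were called at none of the 3 steps on the TMM scale. On total counts alone 2 of the 18 genes were not called at the first step, Id1 among them. Stat3 and Smad1 were therefore not both uncalled there.

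Trf, the iron carrier of blood plasma, was the most abundant member per kilobase in early, intermediate and full. It had 43004, 31999 and 35661 CPM in early, 8766, 6369.6 and 7149 in intermediate, 3475, 2098 and 2617 in full and 1718, 1377 and 1527 in BEC. The groups did not overlap. Trf reads made up 2.43% ± 0.354 of all counts in early and 0.185% ± 0.0197 in BEC (SD, n = 3). Trf fell by 2.31 (SE 0.193, edgeR adjusted p 5.01e-07), 1.44 (SE 0.193, edgeR adjusted p 5.73e-05) and 0.83 (SE 0.193, edgeR adjusted p 0.0071) on the log2 scale at the 3 steps.

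Tfrc, the receptor that takes transferrin-bound iron into cells, was lower in intermediate than in early and higher in BEC than in full. It had 65.6, 111 and 114 CPM in early, 35.8, 43.6 and 44.9 in intermediate, 47.1, 49.8 and 44.1 in full and 102, 87.4 and 81.8 in BEC. Early and BEC overlapped, as did intermediate and full, and both BEC and early lay above both other groups. As CPM on total counts, early (42.8, 72.8 and 76.3) overlapped with intermediate (37.6 to 46.3) and full (52.7 to 60.7) and lay below BEC (98.3 to 122). Tfrc fell from early to intermediate by 1.22 on the log2 scale (SE 0.173, edgeR adjusted p 4.80e-05) and was not called between full and intermediate (0.18, SE 0.173, edgeR adjusted p 0.437). It was higher in BEC than in full (0.94, SE 0.171, edgeR adjusted p 0.00124). BEC against intermediate gave 1.12 (edgeR adjusted p 1.00e-04).

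BEC against early left Tfrc uncalled (-0.10, SE 0.171, edgeR adjusted p 0.614), the 1 member of the set not called there, where 33% of all genes tested were called lower and 40% higher. That comparison of Tfrc turned on early replicate 1 and on scaling. Without that library BEC was lower (-0.32, edgeR adjusted p 0.0259), without early replicate 2 or 3 the value was 0.001 or 0.034 and not called, and on total counts alone BEC was higher (0.76, edgeR adjusted p 0.00112). Tfrc is also known to follow cell division, and 10 proliferation genes summed to 35.3 to 130 CPM in early, 13.3 to 27.6 in intermediate, 196 to 279 in full and 219 to 304 in BEC. Both the sum and Tfrc were lower in intermediate than in early and higher in BEC than in intermediate. The sum was higher in full than in intermediate and in BEC than in early, where Tfrc was not called. It was higher in full than in early, where Tfrc was called lower, and overlapped between BEC and full, where Tfrc was called higher. The part of proliferation in the Tfrc values was not tested.

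Slc11a2, which moves ferrous iron across membranes, changed little after the first step. It had 116, 79.8 and 84.7 CPM in early, 57.9, 49.3 and 49.5 in intermediate, 46.1, 47.5 and 46.8 in full and 39.6, 42 and 39 in BEC. No 2 of these groups overlapped, although the later groups lay close together. Slc11a2 fell by 0.84 between early and intermediate (SE 0.124, edgeR adjusted p 6.51e-05). It was not called between full and intermediate (-0.16, edgeR adjusted p 0.34; 0.04 on total counts alone) or between BEC and full (-0.22, edgeR adjusted p 0.269). The first step was also lost on total counts alone (-0.18, edgeR adjusted p 0.224).

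Fth1, the ferritin heavy chain, which oxidises iron for storage, had 3773, 3185 and 3026 CPM in early, 1401, 1247 and 1101 in intermediate, 884, 724 and 738 in full and 1073, 1029 and 931 in BEC. BEC libraries lay above the full ones and below the intermediate ones. Fth1 fell by 1.41 (SE 0.129, edgeR adjusted p 9.00e-07) and then by 0.68 (SE 0.129, edgeR adjusted p 0.000909) on the log2 scale. The higher level in BEC than in full missed the threshold (0.37, SE 0.129, edgeR adjusted p 0.0588). It passed with the replicate number as a block (0.37, edgeR adjusted p 0.00477), with DESeq2 (0.38, adjusted p 0.0169), on total counts alone (0.37, edgeR adjusted p 0.0488), with the 6 libraries of the pair alone (0.36, edgeR adjusted p 0.027) and without early replicate 1 or full replicate 1 (edgeR adjusted p 0.0372 and 0.0386).

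Ftl1, the light chain, which helps the iron core form, continued downward instead. It had 5430, 4291 and 4751 CPM in early, 1245, 1237 and 1213 in intermediate, 522, 506 and 569.6 in full and 339.9, 366 and 407 in BEC, and no groups overlapped. Ftl1 fell by 1.97 (SE 0.113, edgeR adjusted p 1.59e-08), 1.21 (SE 0.113, edgeR adjusted p 2.23e-06) and 0.52 (SE 0.113, edgeR adjusted p 0.00418) on the log2 scale. Ferritin has processed copies in the genome that could take or give reads. The most abundant of them, Ftl1-ps1, had 12.1 ± 1.95 CPM in early and 1.49 ± 0.506 in BEC (SD, n = 3), a small part of the Ftl1 level.

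Slc40a1, ferroportin, the known iron exporter of mammalian cells and the target of hepcidin, had 245, 181 and 189 CPM in early, 129.9, 109.5 and 127 in intermediate, 107, 103 and 115 in full and 102, 88.7 and 89.6 in BEC. Early stood above the rest, and intermediate overlapped with full. Slc40a1 fell by 0.75 at the first step (SE 0.117, edgeR adjusted p 0.000113) and was not called at the second (-0.17, edgeR adjusted p 0.271) or between BEC and full (-0.22, edgeR adjusted p 0.24). On total counts alone the first step gave -0.08 (edgeR adjusted p 0.535) and the second 0.03, neither called. Ferroportin is abundant in macrophages, so their markers were set beside it. The summed level of 14 macrophage genes ran from 38.4 to 44.6 CPM in early, 43.4 to 55.4 in intermediate, 69.5 to 103 in full and 134 to 169.7 in BEC, and none of the 14 had 0 counts in every library of a group. Of the 11 that could be tested, 1 rose (Csf1r) and 2 fell (Cd68 and Slc11a1) between early and BEC. Over all genes tested, 40% were called higher and 33% lower there. Most of the sum in full and BEC was Csf1r alone. Csf1r had 3.94, 24.6, 67.8 and 127 CPM in the 4 groups, Cd68 had 14, 2.74, 1.62 and 3.46, and the Kupffer cell gene Clec4f had 1.7, 1.23, 1.86 and 3.69. The part of macrophages in the Slc40a1 values was not tested.

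**Figure D2:**
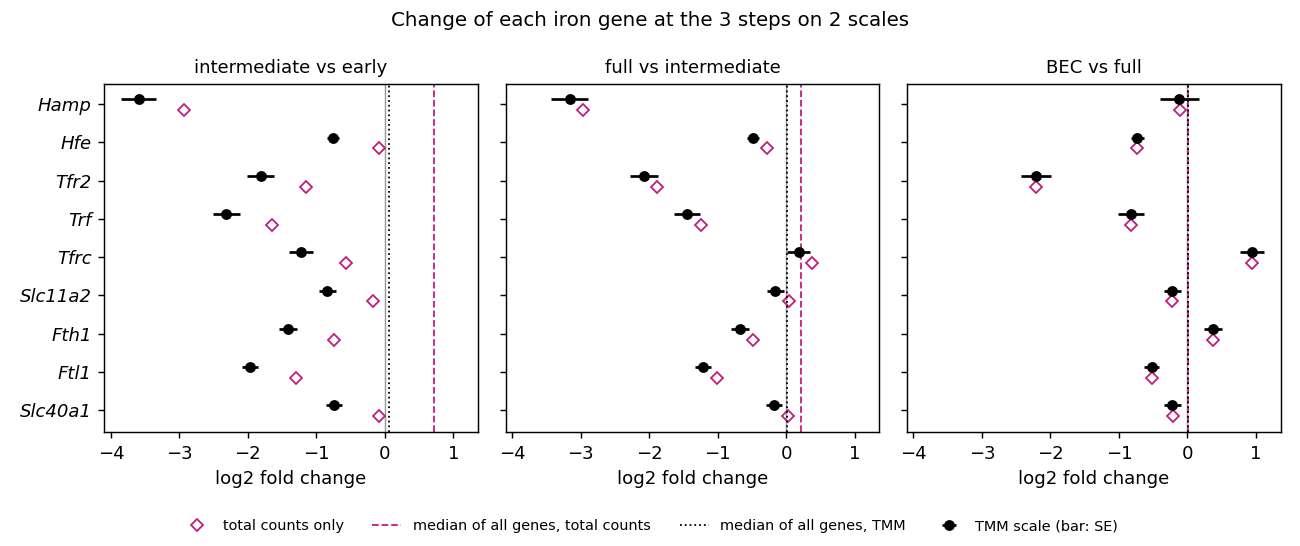
Log2 fold change of each iron gene at the 3 steps on the TMM scale (black, with SE) and with total counts only (open diamonds); vertical lines mark the median of all genes on each scale. At the first step total counts shift every value to the right, and Hfe, Slc11a2 and Slc40a1 then lie near 0, while both scales nearly coincide for BEC against full.

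Groups that are not neighbours in this order were compared as well. Between full and early 9 of the 9 genes fell, where 32.1% of all genes tested were called lower and 39.1% higher. With total counts only, 6 fell, and Tfrc (-0.18), Slc11a2 (-0.13) and Slc40a1 (-0.05) were not called. Between BEC and early 8 fell, from 117-fold for Hamp, 68.6-fold for Tfr2, 23.9-fold for Trf and 13-fold for Ftl1 down to 3.91-fold for Hfe, 3.29-fold for Fth1, 2.33-fold for Slc11a2 and 2.2-fold for Slc40a1. Between BEC and intermediate 7 fell and 1 rose, where 26.2% of all genes were called lower and 26.3% higher. In that comparison Fth1 was not called (-0.31, edgeR adjusted p 0.0623), but passed with the replicate number as a block (-0.30, edgeR adjusted p 0.00819) and without early replicate 1 or intermediate replicate 3. The falls of Slc11a2 (-0.38, edgeR adjusted p 0.0211) and Slc40a1 (-0.39, edgeR adjusted p 0.013) lost their calls without single libraries and on total counts alone. Slc11a2 was -0.30, -0.37 and -0.36 without intermediate replicate 1, BEC replicate 1 and BEC replicate 3 (edgeR adjusted p 0.0851, 0.0519 and 0.0606), and Slc40a1 was -0.36 without BEC replicate 2 (edgeR adjusted p 0.0523). Total counts alone gave -0.18 for Slc11a2 and -0.19 for Slc40a1 (edgeR adjusted p 0.256 and 0.182), which leaves 5 of the 9 genes lower. These comparisons share libraries with the 3 steps.

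Levels can be compared between genes only per transcript length, here CPM per kilobase of the longest protein-coding transcript. In early, Trf came first (14348 CPM per kilobase), followed by Ftl1 (4983), Hamp (2832) and Fth1 (2228), and Tfrc (19.8) and Hfe (19.5) came last. In BEC, Fth1 came first (677 CPM per kilobase), ahead of Trf (599) and Ftl1 (383), and Hamp was at 24.1. Tfr2 was last in BEC at 2.82 CPM per kilobase, against 194 in early, where Tfrc was far below it. Tfrc in BEC was at 18.4 CPM per kilobase, so the order of the 2 transferrin receptors was the reverse of that in early.

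Ratios of 2 genes within a library do not depend on scaling between libraries, and 4 were compared. The Tfrc to Tfr2 count ratio was 0.0881, 0.225 and 0.208 in early, 0.188, 0.273 and 0.284 in intermediate, 1.05, 1.57 and 1.01 in full and 16.9, 10.3 and 7.06 in BEC. Early and intermediate overlapped, and full and BEC each stood apart from every other group. The 4 groups differed (F = 75.8, exact permutation p = 0.000195, adjusted over 4 ratios 0.00039). The ratio was 4.85-fold higher in full than in intermediate and 9.04-fold higher in BEC than in full, both at the lowest exact permutation p that groups of 3 allow, 0.1 (adjusted over 12 tests 0.15).

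The Fth1 to Ftl1 count ratio climbed through the groups. It was 0.695, 0.742 and 0.637 in early, 1.12, 1.01 and 0.908 in intermediate, 1.69, 1.43 and 1.3 in full and 3.16, 2.81 and 2.29 in BEC. No 2 groups overlapped, and the 4 groups differed (F = 66.2, exact permutation p = 6.49e-05, adjusted 0.00026). The steps were 1.46-, 1.45- and 1.86-fold, each again at the exact permutation p of 0.1. The ratio sets read counts side by side and not molecules per cell, since the transcripts differ in length.

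**Figure D3:**
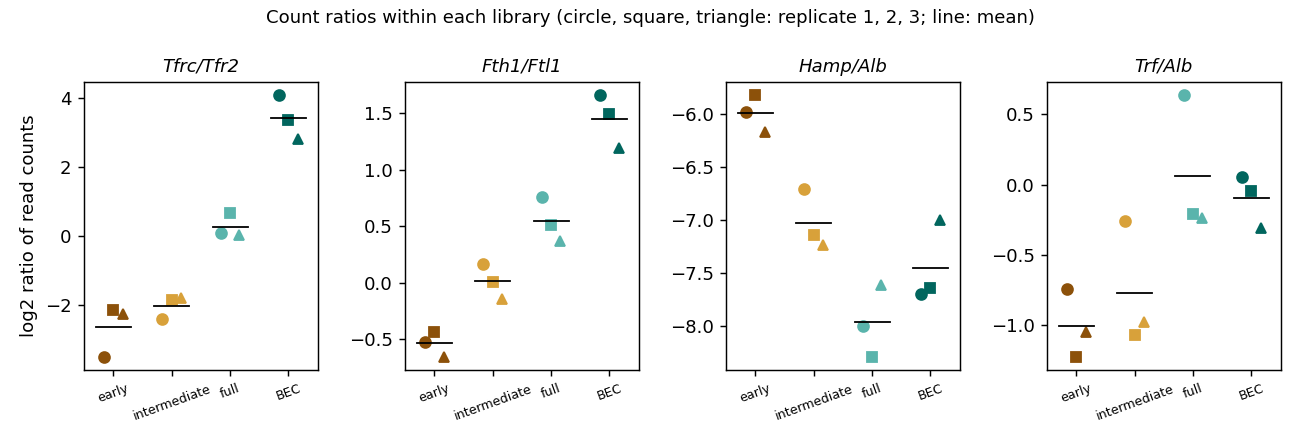
Log2 ratio of read counts within each library for Tfrc to Tfr2, Fth1 to Ftl1, Hamp to Alb and Trf to Alb, by group; symbols are replicates 1, 2 and 3 and the line is the mean. The first pair of ratios rises toward BEC, with BEC above every other library, while Hamp to Alb falls to full and BEC and Trf to Alb is higher in full than in intermediate, with early and intermediate overlapping.

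Alb, the hepatocyte product albumin, served as a yardstick for Hamp and Trf. Hamp fell more than Alb did: their ratio was 0.0158, 0.0177 and 0.0139 in early, 0.00956, 0.00708 and 0.00665 in intermediate, 0.00391, 0.0032 and 0.00512 in full and 0.0048, 0.005 and 0.00781 in BEC. The 4 groups differed (F = 22.4, exact permutation p = 0.000779, adjusted 0.00104), with early above intermediate and intermediate above full, and BEC overlapping full and intermediate. Trf fell less than Alb, with a ratio of 0.597, 0.428 and 0.483 in early, 0.835, 0.478 and 0.509 in intermediate, 1.55, 0.867 and 0.847 in full and 1.04, 0.969 and 0.809 in BEC. That difference among the 4 groups (F = 5.97, exact permutation p = 0.0228, adjusted 0.0228) was lost without early replicate 2 (F = 4.24, exact permutation p = 0.0559) or early replicate 3 (F = 4.39, exact permutation p = 0.0518). These permutations leave the replicate numbers out. Within same-numbered libraries, Trf to Alb was higher in intermediate than in early and higher in full than in intermediate in 3 of 3 pairs, and Hamp to Alb was higher in BEC than in full in 3 of 3, where 3 pairs allow no exact p under 0.25.

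Beyond the hepcidin pathway, 45 other iron genes were examined in 5 lists. Together with the 18 above, 58 of 63 could be tested, and 13 rose and 33 fell at the first step, 8 rose and 29 fell at the second, and 4 rose and 12 fell between full and BEC. On total counts alone 23 rose and 14 fell at the first step, so the balance of directions there depends on scaling, and at the second 14 rose and 21 fell. These counts stand beside the shares of all genes given for each step above.

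Of 7 genes for the iron regulatory proteins and ferritin turnover, 2 rose and 3 fell at the first step, against 5 higher and 1 lower on total counts alone. Aco1 (IRP1, which is also cytosolic aconitase) fell from 415 ± 50.5 CPM in early to 270.3 ± 33.7, 220 ± 14 and 159 ± 3.74 (SD, n = 3), called at all 3 steps (edgeR adjusted p 0.000336, 0.0463 and 0.00736). The first step for Aco1 turned to 0.04 and was not called on total counts alone. The second was lost on total counts alone (-0.10, edgeR adjusted p 0.512), with DESeq2 (-0.26, adjusted p 0.064) and without intermediate replicate 2 or 3 or any 1 of the full or BEC libraries, with an edgeR adjusted p of up to 0.201. Ireb2 (IRP2) was nearly level at 109, 104, 108 and 105 CPM and called at none of the 3, although total counts alone put it higher at the first (0.60, edgeR adjusted p 0.000164). Fbxl5, the ubiquitin ligase subunit that marks IRP2 for degradation when iron is present, had 53.6 ± 1.51 CPM in early, 113 ± 14.2 in intermediate, 117 ± 3 in full and 159 ± 14.3 in BEC. Fbxl5 rose at the first step (1.08, edgeR adjusted p 8.22e-07) and between full and BEC (0.44, edgeR adjusted p 0.00445). Pcbp2, an iron chaperone, was not called at any step on the TMM scale. On total counts alone Aco1 was the only gene of the list not called at the first step, so Pcbp2 was called there.

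Among 10 tested genes of iron reduction and other uptake routes, 3 rose and 5 fell at the first step, 1 rose and 6 fell at the second, and 1 rose and 5 fell between full and BEC. On total counts alone the first step had 3 higher and 1 lower. Steap3, the reductase that acts with the transferrin receptor in endosomes, had 63.6, 34.8, 10.6 and 2.39 CPM in the 4 groups and fell at every step (0.87, 1.71 and 2.15 on the log2 scale), although total counts alone left the first uncalled (-0.20, edgeR adjusted p 0.293). Slc11a1, a phagosomal iron transporter, had 13.8, 11.9, 2.79 and 0.589 CPM and fell at the second step (2.09) and the third (2.22). Lcn2, a siderophore-binding protein of inflammation, had 905 ± 363, 259 ± 133, 551 ± 145 and 1383 ± 317 CPM. It fell at the first step by 1.81 on the log2 scale (edgeR adjusted p 0.000615, and at most 0.00465 with single libraries left out), then rose at the second (1.09, edgeR adjusted p 0.0213) and the third (1.33, edgeR adjusted p 0.0128). Leaving out single libraries kept the Lcn2 values between 0.82 and 1.58 at the second step and between 1.15 and 1.54 at the third. The call at the second step was lost when replicate 2 or 3 of intermediate, or replicate 1 of full, was left out (edgeR adjusted p up to 0.0857), and the third without full replicate 3 or BEC replicate 1 (up to 0.063 by edgeR, adjusted p). Scara5, a ferritin receptor, was not called at any step.

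The 2 tested ferroxidases, which oxidise iron as it leaves cells, went opposite ways at the second step (both are named after their values were seen). Cp, ceruloplasmin, had 5444, 4963, 3222 and 2876 CPM and fell there. Heph, hephaestin, was near the floor in early (1, 4 and 5 counts) and had 0.92 CPM in intermediate, 9.25 in full and 9.58 in BEC, rising at the first and second steps.

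Heme and hemoglobin handling held 8 tested genes, of which 7 fell and 1 rose at the first step. Hp and Hpx, the plasma carriers of hemoglobin and heme, fell at all 3 steps: Hp had 12152, 3044, 964 and 526 CPM, and Hpx had 11622, 2088, 271 and 122. Lrp1, the receptor of the heme and hemopexin complex, had 1189.9, 487, 305 and 102 CPM, and Flvcr2 had 22, 6.51, 1.71 and 0.483, both falling at each step. Flvcr1, described as a heme exporter, ran the other way at 5.05 ± 0.904, 11.1 ± 1.29, 19 ± 1.41 and 31.1 ± 1.67 CPM (SD, n = 3) and rose at all 3 steps (1.13, 0.78 and 0.71, edgeR adjusted p 2.44e-05, 0.000373 and 0.00111). Slc48a1, a heme transporter of lysosomes, fell at the first and second steps (260.4, 113, 73.6 and 77.2 CPM), the second lost on total counts alone (-0.42, edgeR adjusted p 0.0509). Abcg2, a porphyrin exporter, fell between full and BEC (-1.26, edgeR adjusted p 0.000127). Its call at the first step (-0.43, edgeR adjusted p 0.0458) turned to 0.24 and was lost on total counts alone, and it was also lost without any 1 early library, intermediate replicate 2 or 3, full replicate 2 or 3, or BEC replicate 3. Hmox1, which breaks heme down and frees its iron, rested on 1 library: it had 112, 31.3 and 26.5 CPM in early and between 24.6 and 31.2 in intermediate, and its fall there (-1.08, edgeR adjusted p 0.0344) was lost without early replicate 1 (-0.10, edgeR adjusted p 0.609).

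In mitochondria, where iron is built into heme and iron-sulfur clusters, 12 of 13 tested genes fell at the first step and 10 at the second, and edgeR called 0 between full and BEC. Iscu, the scaffold of cluster assembly, had 118, 48.7, 29.5 and 29.7 CPM and fell by 1.27 and 0.72 on the log2 scale. Glrx5, which hands clusters on, had 134, 50.9, 26.4 and 22.8 CPM and fell by 1.40 and 0.95. The median of the list at the first step was -0.69 on the TMM scale and -0.03 on total counts alone, where 2 of the 13 fell and 1 rose, and 6 fell at the second step. Between full and BEC, 5 of the 13 had an unadjusted edgeR p under 0.05, DESeq2 called 1 higher and 0 lower, and edgeR with the replicate block called 0 higher and 1 lower.

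**Figure D4:**
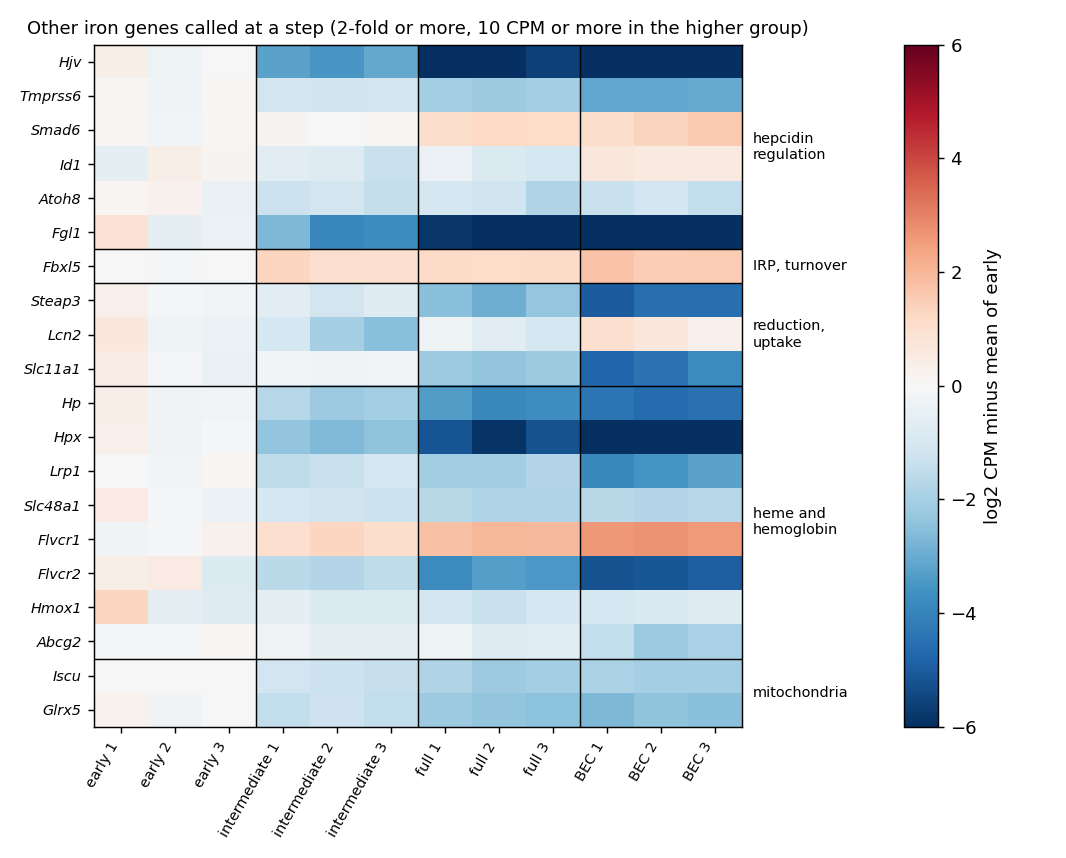
Log2 CPM minus the early mean for the other iron genes called at a step with at least a 2-fold change and at least 10 CPM in the higher group, in each of the 12 libraries, grouped by list; colours end at 6 in either direction, so Hjv, Fgl1 and Hpx are at the end of the scale in BEC. Flvcr1, Fbxl5 and Smad6 lie above early in full and BEC, and most others drawn lie below. Of the 5 genes left out only by the 10 CPM minimum, Heph, Steap1, Cybrd1 and Pcbp3 were called higher in full and BEC than in early and Hamp2 lower.

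Over the 12 libraries, the genes whose log2 CPM was most like that of Hamp among 9963 candidates were Apoa2 (Pearson r 0.998), AI182371 (0.998), Apon (0.998), Apoc3 (0.998) and Apoa4 (0.997), and 4 of these are named as apolipoproteins. Apoa2 had 2827, 267, 29.5 and 30.6 CPM in the 4 groups. For Tfrc they included C1galt1 (0.948), Fzd4 (0.939), Slc35a3 (0.931) and Mpzl2 (0.929), and C1galt1 had 107, 80.6, 82.2 and 111 CPM. The libraries fall into 4 groups, so these r values mostly describe the group means.

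Blood cells could carry iron genes into a sort, so a list of erythroid genes was set beside them. How reads that match several genes were counted is not given, so counts of the globin genes may lack such reads. The defining globin genes Hba-a1, Hba-a2 and Hbb-bt had 0 counts in early, Hbb-bs had at most 0.237 CPM in an early library, and the erythroid sum of 9 genes was 21.8 to 36.5 CPM there and at most 4.19 elsewhere. Most of it was Alas2, the erythroid heme synthesis enzyme, at 24.3 ± 7.62 CPM in early (SD, n = 3). Endothelial cells make Bmp6 in liver, and Bmp6 was at 82.1, 149, 129.7 and 121 CPM in the 4 groups. The endothelial sum of 8 genes was 42.1 to 52.1 CPM in early and 4.24 to 12.2 in BEC. Most of it in early was Stab1 and Stab2 (means 30.5 and 11.9 CPM). Of its 7 tested genes, 2 were called lower in BEC than in early. The stellate cell and fibroblast sum of 8 genes was 110.2 to 322 CPM in early, 64.2 to 188 in intermediate, 48.4 to 84.1 in full and 62.1 to 107 in BEC. Of its 7 tested genes 2, 1 and 1 fell at the 3 steps, 7 fell between early and full and 5 between early and BEC, where 32.1% and 33% of all genes were called lower. The part of erythroid cells, endothelial cells, stellate cells and fibroblasts in the levels of the iron genes was not tested.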

How the data were processed

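Bulk RNA-seq of 12 libraries was analysed from the raw counts per gene that the authors deposited. Per the submitters' processing notes, STAR 2.7.10b, featureCounts 2.0.1, DESeq2 and GRCm39 were used. The annotation, the strandedness and the counting of reads that match several genes are not given in the sources used here. A second deposited table, of normalized values, was not used. Every row carried a gene name and every column matched a sample.

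Genes were kept by filterByExpr. Counts were scaled by TMM and fitted in 1 model of all 12 libraries with a term per group (R 4.3.3, edgeR 4.0.16, quasi-likelihood test, Benjamini-Hochberg over 16210 genes). Alternatives were DESeq2 1.42.0, other scalings and filters, a replicate block, fits of 6 libraries and leaving out each library. Log2 CPM used a prior count of 2, and count ratios a pseudocount of 0.5 with 2-sided exact permutation tests. Figures used Python 3.11.15 and matplotlib 3.10.9.

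The members and lists were chosen with earlier results of these data known. Beside the 9 genes, the text names iron genes called at a step with 10 CPM or more and a log2 fold change of 1 or more in size, up to 2 uncalled genes per list, and the 5 genes most like Hamp and Tfrc, of which 1 is not reported here. Other genes were named after their values were seen.

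Deviations from the group means correlated across genes between libraries of the same number (r between 0.121 and 0.293, 0.137 and 0.322, and 0.17 and 0.257 at the 3 steps). Each r passed the minimum set for pairing, so the numbers may pair the libraries there. Libraries of different numbers were not compared. The main fit leaves such pairs out, and the replicate block is given as an alternative. In other pairs of groups the lowest r was between 0.0442 and 0.096. The labels do not say what the number marks, although their sample codes run in sequence within each number. Replicates differed beyond counting error (chi-square per degree of freedom 5.34 to 58.2).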

Additional observations from a re-analysis of the deposited data

How the results depend on the processing

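Over all alternatives, 993 of 1026 fold changes of the 9 iron genes kept their direction and side of the threshold, 13 became called, 12 lost their call and 8 changed sign, none of them with a call on both sides. With total counts only, 12 of 54 changed, with the lost and gained calls given beside the genes. Sign changes among the 9 genes were Slc11a2 (0.043) and Slc40a1 (0.03) at the second step and Tfrc in BEC against early (0.764). Among the other iron genes followed singly, Abcg2 (0.236), Aco1 (0.044) and Ireb2 (0.599) changed sign at the first step. Not all were followed singly. Cp, at -0.133 on the TMM scale, was called higher at the first step on total counts alone, as was Heph. The share of all calls that were higher became 85.6%, 72.6%, 50.3%, 81.8%, 80.3% and 66.5% over the 6 comparisons in the order of steps, full against early, BEC against early and BEC against intermediate, against 52.8%, 51.2%, 50.1%, 54.9%, 54.8% and 50.1%. Leaving out single libraries moved some values across 0: Hamp in BEC against full ran from -0.521 to 0.268, Tfrc in BEC against early from -0.317 to 0.034, and Ireb2 from -0.157 to 0.009, -0.008 to 0.073 and -0.135 to 0.012 at the 3 steps. It moved the log2 ratio of Trf to Alb between -0.015 and 0.388 for intermediate against early and between -0.313 and 0.124 for BEC against full, its F over 4 groups between 4.24 and 9.36, and the log2 ratio of Tfrc to Tfr2 for intermediate against early between 0.177 and 0.852. With the replicate block, 9, 6 and 6 of the 9 genes were called at the 3 steps, and beyond both Fth1 calls it changed no call of the 9 genes; the mean ratio differences are the same by construction (0.609 for Tfrc to Tfr2 at the first step), and 3 pairs allow no exact p under 0.25. Causes were not tested. With 3 libraries per group, low genes such as Hamp2 are limited by depth.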

Other observations

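Within some groups, most of the iron genes were highest or lowest in the same library. The same count was not made over all genes, so it cannot be read as a trait of the iron genes. Early replicate 1 was the highest of its group for 7 of the 9 genes and the lowest for Tfrc. Intermediate replicate 1 was the highest for 8 of the 9 and the lowest for Tfrc. In full and BEC the extremes were spread over the replicates, with at most 5 of the 9 genes highest in any 1 library, although full replicate 2 was lowest for 6. The highest Hamp in full and in BEC was in replicate 3 of both (15.8 and 14.7 CPM, against 7.08 to 8.72 in the other 4 libraries). What sets these libraries apart was not tested.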
